A study of Drosophila melanogaster with 58 samples.

Results

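The gene set comprised 9 neuronal RNA-binding proteins, elav, fne, Rbp9, Fmr1, orb2, pum, bru3, mub and shep, together with Tob, an adaptor of mRNA deadenylation. The members were chosen by gene symbol for their roles as RNA regulators in neurons; no threshold on a measured level was used, but earlier results of these data were known when the set was drawn up. All 10 were found among the 12453 genes of the count table, and all 10 were among the 10072 genes that passed the low-count filter and were tested.

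The study profiled the RNA of Drosophila melanogaster mushroom body neurons, the intrinsic cells of a brain centre for olfactory memory, to follow alpha-beta neurons as they first extend axons and gamma neurons as they regrow axons after pruning. Each library was made by the Smart-seq2 protocol from 1000 GFP-positive cells sorted from dissociated brains of flies reared at 25 °C with the sexes mixed. Both neuron types were taken at 18, 21, 24, 27 and 30 h after pupa formation and in adults 3 to 5 days after eclosion. The 12 groups held 5 libraries each, except for 6 of alpha-beta neurons at 24 h, 4 at 27 h, and 3 of gamma neurons at 27 h. The genotype and the driver line behind the GFP are not given in the labels, which name no genetic or drug treatment for any group. A 27 h alpha-beta library numbered 2 and a 27 h gamma library numbered 1 were not analysed here.

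Of the ELAV family, which includes elav, fne and Rbp9, the Elav protein acts in neuronal nuclei. There it directs alternative splicing and the choice of poly(A) sites, and elav is the standard pan-neuronal marker of the fly. Fmr1, orb2 and pum act largely on translation, often at synapses: Fmr1 is the fly orthologue of the fragile X protein, Orb2 is a CPEB protein needed in mushroom body neurons for long-term memory, and Pumilio is a PUF protein that represses the mRNAs it binds. Tob, a member of the Tob/BTG family, recruits the CCR4-NOT deadenylase in vertebrates, and the fly protein binds and stabilises Orb2.

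The 58 libraries, 30 of alpha-beta and 28 of gamma neurons, held between 4403619 and 27242758 counts, with a median of 13297343, and each detected between 5266 and 8544 genes. Adult libraries detected fewer genes than those of 30 h, 5266 to 7464 against 7417 to 7822 in alpha-beta and 5854 to 7343 against 6933 to 7948 in gamma neurons. Levels are given as counts per 1000000 (CPM) after TMM scaling, and a gene is said to have risen or fallen where edgeR's quasi-likelihood test gave a Benjamini-Hochberg adjusted p under 0.05 over all tested genes. Markers moved with age: the summed level of 7 neuronal markers lay between 1913.6 and 3577 CPM at 30 h over both cell types and between 5600.2 and 12531 CPM in adults. The summed level of 8 glial markers was 454 to 878 CPM at 30 h and 506 to 3532 CPM in adults. The defining marker repo was at 0 in every adult alpha-beta library, but other glial markers were higher there than at 30 h. Alpha-beta medians at 30 h and in adults were 36.6 and 743 CPM for Gs2, 0 and 49.2 CPM for Gat and 1.45 and 44.3 CPM for alrm. They were 0 and 12.6 CPM for Eaat1 and 563.5 and 378.8 CPM for nrv2, while moody and wrapper had medians of 0 at both ages. The 7 markers of other transmitter classes summed to 40.96 to 243 CPM at 30 h and 574 to 3484 CPM in adults, where Gad1, the GABA-synthesising enzyme, had medians of 656 CPM in alpha-beta and 836 CPM in gamma libraries. The 10 Kenyon cell markers, those of mushroom body neurons, were detected in every group. Their summed level had a median of 10340.1 CPM at 30 h and 6178 CPM in adults in alpha-beta neurons (ranges 6320.6 to 14927.1 and 4051.9 to 7739.1 CPM). Single markers went both ways in alpha-beta neurons. Medians at 30 h and in adults were 3684 and 798 CPM for mamo, 490 and 320 CPM for ey and 294.1 and 173.6 CPM for dac. They were closer for toy (560.6 and 512 CPM), Fas2 (359.2 and 331.7 CPM), trio (123.3 and 122.5 CPM) and Pka-C1 (1700.5 and 1632.7 CPM). Of these genes, all but mamo had overlapping ranges. Medians were 11.6 and 525.9 CPM for sNPF, 14.2 and 114.3 CPM for rut and 749.9 and 1193.9 CPM for dnc. In gamma neurons the summed level had medians of 11043.2 CPM at 30 h and 12317.3 CPM in adults. The part of these markers and of the number of genes detected in the adult results below was not tested.

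Tob was close to silent in the pupal neurons of both types and was recorded in every adult library. No Tob count was recorded in 38 of 48 pupal libraries. In adult alpha-beta neurons Tob measured 1061, 976, 716, 388 and 911 CPM in the 5 libraries, and in adult gamma neurons 646, 445, 312, 410 and 1032 CPM. The means were 811 ± 268 (SD, n = 5) and 569 ± 286 CPM (SD, n = 5), from 3947 to 9171 counts per library.

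The 10 pupal libraries with a Tob count were 7 of 25 alpha-beta and 3 of 23 gamma libraries, and 8 of them held more than 3 counts. The highest pupal value was 9.29 CPM, from 67 counts in 1 alpha-beta library at 21 h, and the highest gamma value was 6.73 CPM, from 59 counts at 21 h. The lowest adult library was thus 33.5-fold above the highest pupal library, and adult and pupal libraries did not overlap in either cell type. At 27 h no library of either type recorded Tob.

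Against 30 h, Tob rose in both cell types. The alpha-beta libraries at 30 h held 0, 40, 2, 0 and 0 counts, a mean of 0.614 CPM, and the adult mean was 1321-fold higher (log2 fold change 10.32, SE 1.88, edgeR adjusted p = 9.72e-05). Replicate 2 held nearly all of the 30 h counts, and without it the fitted log2 fold change was 14.12, from at most 2 counts per 30 h library. Against a floor of 3 counts in the shallowest of the remaining libraries, 0.374 CPM, the adult alpha-beta mean was at least 2166-fold higher. All 5 gamma libraries at 30 h held 0 counts. Set against a floor of 3 counts in the shallowest of them, 0.338 CPM, the adult gamma mean was at least 1684-fold higher (edgeR adjusted p = 1.01e-05). The adult levels of the 2 cell types overlapped and were not called different (log2 fold change of gamma against alpha-beta -0.51, SE 1.25, adjusted p = 0.99). Libraries of 1000 sorted cells are bulk samples, in which fewer cells with a transcript and less transcript per cell cannot be told apart.

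**Figure D1:**
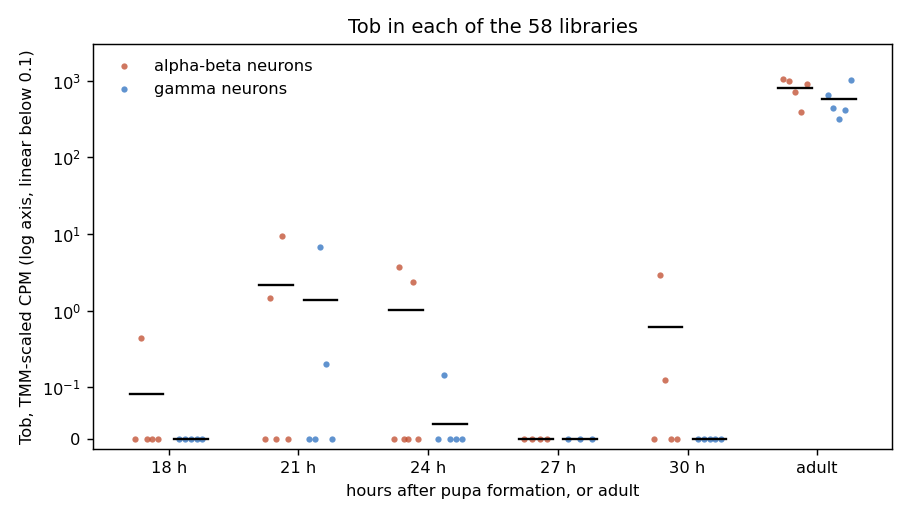
Tob in each of the 58 libraries, as TMM-scaled CPM on a log axis that is linear below 0.1, by stage and cell type; points are libraries and bars are group means. The adult libraries lie between 312 and 1061 CPM, while 38 of 48 pupal libraries lie at 0.

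Taken per kilobase of exon, so that genes of different length could be set side by side, Tob was the lowest of the 10 members in every pupal group that recorded it. In adult alpha-beta neurons it ranked 5 of 10, at 98.6 ± 32.6 CPM per kb (SD, n = 5), below bru3 at 110 ± 25.7 and above pum at 90.2 ± 25.5, neighbours within 1 SD of it. In adult gamma neurons it ranked 6 of 10, at 69.2 ± 34.8 CPM per kb. The 3 genes whose 12 group means followed those of Tob most closely, out of 4551 searched, were mtd (Pearson r = 0.989), COX6B (r = 0.986) and Fas1 (r = 0.985); COX6B encodes a cytochrome c oxidase subunit and Fas1 the adhesion molecule Fasciclin 1. All 3 had higher means in adults than at 30 h in both cell types, COX6B at 1179 against 557 CPM in alpha-beta and 1327 against 543 CPM in gamma neurons. Tob differed mainly between the pupal and the adult groups, so r reflects mainly that step and not its size.

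orb2, the CPEB partner of Tob, was the other member that rose in adult alpha-beta neurons. At 30 h the 5 alpha-beta libraries held 102, 91.9, 120.2, 91.9 and 164 CPM, and the adult libraries 247, 205, 711, 854 and 184 CPM. Every adult library was above every 30 h library, with adult replicates 3 and 4 far above the other 3. The rise was 1.95 on the log2 scale (SE 0.49, edgeR adjusted p = 0.00418).

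In gamma neurons orb2 measured 49.9, 73.3, 207, 49.6 and 196 CPM at 30 h and 348, 183, 409, 304 and 272 CPM in adults. Only adult replicate 2 fell within the range of the 30 h libraries. The log2 fold change of 1.40 (SE 0.49) had an edgeR adjusted p of 0.0532 and so was not called, but it passed in 6 of 8 alternative fits, with an adjusted p of 0.0125 by DESeq2, and the authors' deposited table gives 1.43 with an adjusted p of 0.0131. It also passed when gamma 30 h replicate 3 (adjusted p = 0.0294), gamma 30 h replicate 5 (0.0359) or adult gamma replicate 2 (0.0395) was left out. The difference between the cell types in this change was not called (interaction -0.55, SE 0.68, adjusted p = 1).

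Over the pupal stages the group means of orb2 ran from 58.1 CPM in alpha-beta neurons at 18 h to a highest value in gamma neurons at 30 h, 1.98-fold above it. From 18 h to 30 h alpha-beta neurons had a value of 0.97 on the log2 scale (SE 0.48, edgeR unadjusted p = 0.0491, adjusted p = 0.524). Gamma neurons had one of 0.68 (SE 0.48, adjusted p = 0.84). Neither was called. This step leaves out the stages between, and a trend over the pupal stages was not tested. In the order of its 12 group means the only neighbours apart by more than the larger SD were gamma neurons at 30 h and in the adult. The gene shares 14.8% of its exon bases with CG43783 on the same strand, and reads from the shared bases may have been counted for either gene or neither. CG43783 itself had means of 7.98 CPM at 30 h and 13.6 CPM in adults in alpha-beta libraries, and of 10.4 and 23.5 CPM in gamma libraries. The genes nearest to orb2 in their group means were Rbp, the RIM-binding protein of the active zone (r = 0.983), jus (r = 0.981) and cac, a voltage-gated calcium channel subunit (r = 0.976).

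Fmr1 moved the other way in alpha-beta neurons. The 5 libraries at 30 h measured 222, 334, 144, 242 and 178 CPM, and the adult libraries 79.8, 29.9, 143, 91.2 and 56.3 CPM. All adult values were below all 30 h values, by a narrow margin for adult replicate 3. Fmr1 fell by 1.48 on the log2 scale (SE 0.37, edgeR adjusted p = 0.0034), a call lost with limma-voom and sample weights (adjusted p = 0.0537). In gamma neurons Fmr1 measured 362, 210.3, 216, 139 and 111 CPM at 30 h and 143, 116, 69.8, 155 and 132 CPM in adults. These ranges overlapped, and the log2 fold change of -0.75 (SE 0.36, adjusted p = 0.162) was not called; neither was the difference between the cell types (interaction 0.73, SE 0.51, adjusted p = 0.712).

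Adult alpha-beta neurons had the lowest group mean of Fmr1, 80.1 ± 42.4 CPM (SD, n = 5), and gamma neurons at 18 h the highest, 297 ± 74.4 CPM (SD, n = 5). The pupal groups lay between 167 and 297 CPM, and none of them was called different between the cell types at any stage. Per kilobase, Fmr1 ranked 7 of 10 in alpha-beta neurons at 30 h and 10 of 10 in the adult. The nearest genes by group means were RhoGAPp190 (r = 0.966), rin, the fly G3BP of stress granules (r = 0.964), and Pld3 (r = 0.961).

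pum had the least uniform adult values. In adult gamma neurons 4 libraries held 1024, 659, 281 and 670 CPM and replicate 5 held 3778 CPM. The log2 fold change against 30 h was 0.37 (SE 0.34, adjusted p = 0.558) with that library and -0.61 without it (adjusted p = 0.165), so its direction rested on 1 library and no change was called. The alpha-beta value for pum was -0.43 on the log2 scale (SE 0.34, adjusted p = 0.44).

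fne was the most abundant member per kilobase in every pupal group and fell in adult alpha-beta neurons. At 30 h the alpha-beta libraries held 3182, 2290.0, 3175, 3686 and 5535 CPM, and the adult libraries 2105, 1252, 1763, 1512 and 1738 CPM. The ranges did not overlap, and fne fell by 1.09 on the log2 scale (SE 0.23, edgeR adjusted p = 0.000557; with limma-voom and sample weights 0.0515). In gamma neurons, fne measured 2789, 1883, 2167, 1463 and 1813 CPM at 30 h and 1713, 1406, 1084, 1691 and 1366 CPM in adults. These ranges overlapped and the log2 fold change of -0.48 (SE 0.23) was not called (adjusted p = 0.164). The interaction of cell type with age was 0.62 (SE 0.33, adjusted p = 0.47).

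elav and Rbp9, its relatives, were not called in either cell type. elav had means of 725 ± 74.2 and 607 ± 133 CPM (SD, n = 5 each) in alpha-beta neurons at 30 h and in the adult, with a log2 fold change of -0.26 and an adjusted p of 0.486. In gamma neurons its libraries ran from 469.7 to 913 CPM at 30 h, with a median of 585 CPM, and from 222 to 685 CPM in the adult, with a median of 484 CPM (log2 fold change -0.48, adjusted p = 0.142). Over all 12 groups its means spanned a 1.77-fold range, and no neighbours in their order were apart by more than the larger SD. Of its exon bases 27.9% are shared on the same strand with lncRNA:enrr and 6.28% with arg on the other strand, which the Smart-seq2 protocol does not mark. For Rbp9 the alpha-beta value was -0.10 ± 0.31 (SE; adjusted p = 0.935) and the gamma value -0.69 ± 0.31 (SE; adjusted p = 0.128), the gamma value being called only without adult gamma replicate 1 (adjusted p = 0.0475).

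As a share of the 3 ELAV family transcripts per kilobase, fne made up 68.5% to 79.5% on average in the pupal groups. In alpha-beta neurons its share was 76.7% ± 2.84 (SD, n = 5) at 30 h and 64.7% ± 4.60 (SD, n = 5) in the adult, with no overlap between libraries (two-sided exact permutation test, p = 0.00794, the smallest that 5 against 5 allows; adjusted over 2 tests, 0.0159). The Rbp9 share was 8.62% at 30 h and 14.5% in the adult, and the elav share 14.7% and 20.9%. These shares come from the same counts as the fall of fne above and are no separate support for it. A lower fne raises both other shares, and neither elav nor Rbp9 was itself called. In gamma neurons the fne share was 68.5% ± 3.48 at 30 h and 70.9% ± 6.72 in the adult (SD, n = 5 each; two-sided exact permutation test, p = 0.46), with overlapping libraries. Gene counts hold no information on which isoforms of these genes were made.

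**Figure D2:**
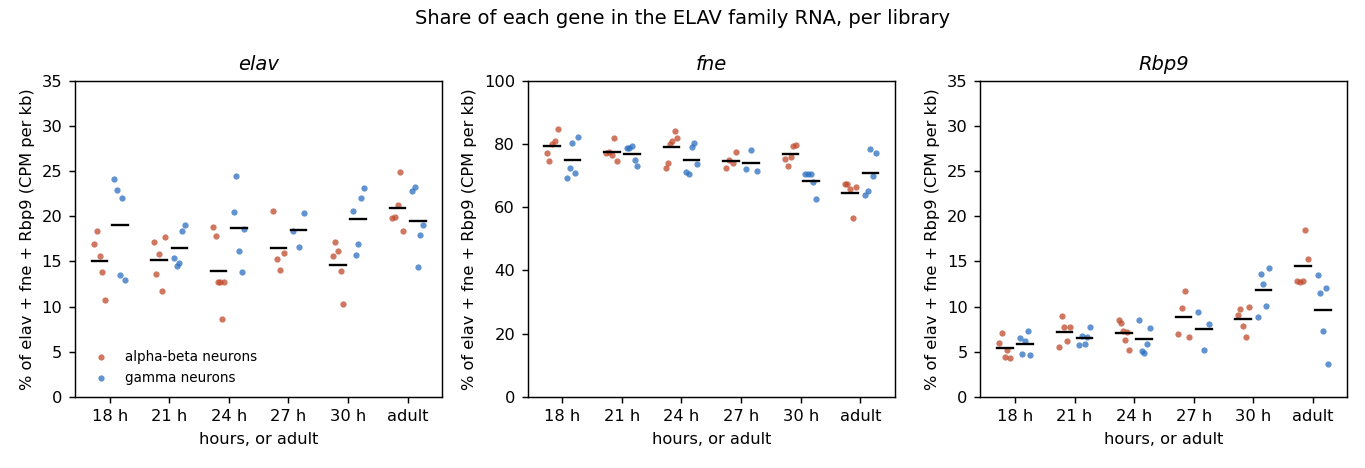
Share of elav, fne and Rbp9 in their summed CPM per kilobase of exon, in percent, by stage and cell type; points are libraries, bars are group means, and the fne axis has its own range. In alpha-beta neurons the fne share lies at 76.7% at 30 h and 64.7% in the adult, while the gamma libraries of these stages overlap.

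None of the remaining RNA-binding proteins was called between 30 h and the adult. bru3, a CELF family protein, had log2 fold changes of 0.09 (adjusted p = 0.911) in alpha-beta and 0.60 (adjusted p = 0.108) in gamma neurons. mub, a KH-domain protein of the poly(C)-binding family that takes part in splicing, had values of 0.06 (adjusted p = 0.979) and 0.38 (adjusted p = 0.41). shep, an RRM protein that takes part in neuronal remodelling at metamorphosis, had 0.20 (adjusted p = 0.597) and 0.09 (adjusted p = 0.905). Their group means spanned 1.58-fold, 2.49-fold and 1.53-fold over the 12 groups, with median within-group coefficients of variation of 26.4%, 26.4% and 21.4%.

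**Figure D3:**
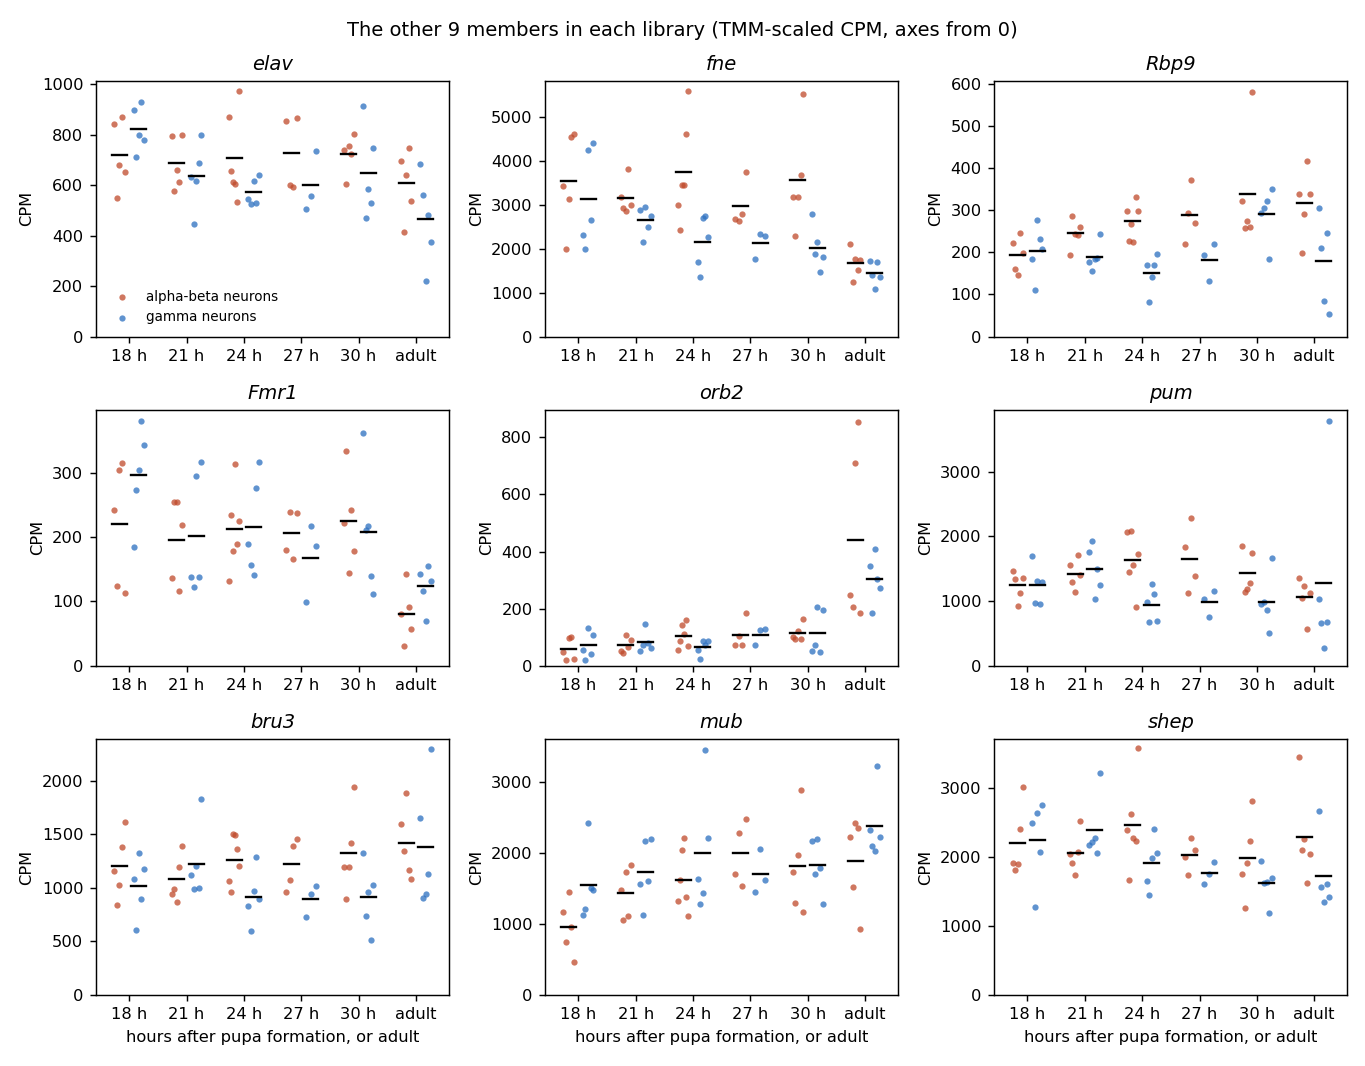
The other 9 members in each library as TMM-scaled CPM, by stage and cell type; points are libraries, bars are group means, and each linear axis starts at 0. In adult alpha-beta neurons orb2 is higher and Fmr1 and fne are lower than at 30 h, without overlap, while for these genes the gamma libraries of the 2 ages overlap, and 1 adult gamma library stands at 3778 CPM of pum.

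Adult against 30 h called 4 of 10 members in alpha-beta neurons, 2 higher and 2 lower, where 12.5% of all tested genes were called (4.69% higher, 7.8% lower). In gamma neurons it called 1 of 10, higher, where 10.2% were called (5.06% higher, 5.18% lower). The same members had libraries that did not overlap between 30 h and the adult, beside 11.3% of the genes tested for alpha-beta neurons and 8.04% for gamma neurons. In alpha-beta neurons the members' median log2 fold change was -0.02, beside -0.16 for every tested gene, and in gamma neurons the 2 medians were 0.23 and -0.07. No member had an interaction of cell type with this change that was called by edgeR or DESeq2, where these tools called 0.665% and 9.56% of all genes. Tob alone had an unadjusted p under 0.05, beside 11.9% of all genes. Its interaction was 5.58 (SE 2.72, edgeR adjusted p = 0.406), and 1.78 without replicate 2 of alpha-beta neurons at 30 h. All gamma libraries at 30 h held 0 Tob counts, so these are fitted values whose size could not be measured. The interaction values not given above were 0.81 for pum, 0.51 for bru3, 0.32 for mub, -0.11 for shep, -0.22 for elav and -0.60 for Rbp9. Whether the replicates came from separate dissections is not stated, so the p-values measure the spread between these libraries.

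**Figure D4:**
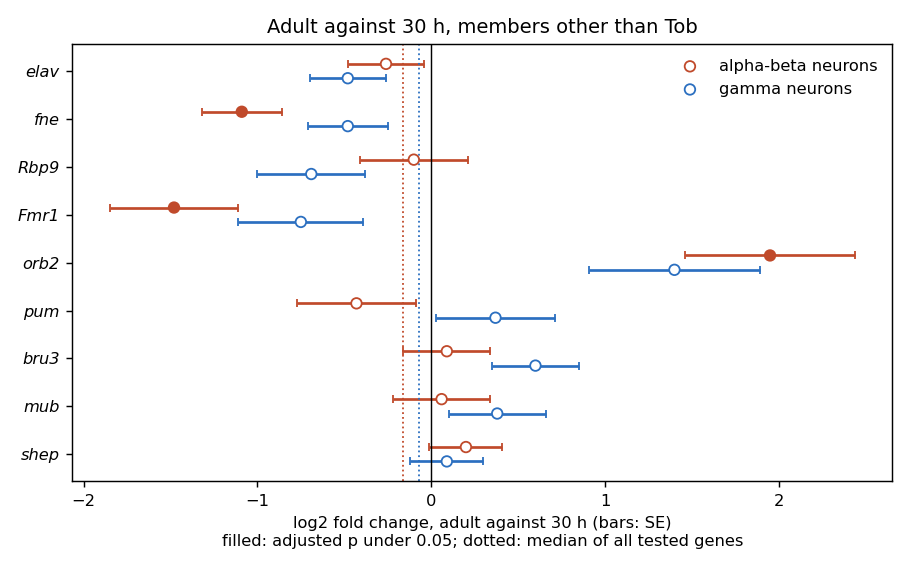
Log2 fold change of adult against 30 h for the 9 members other than Tob, with SE bars, in alpha-beta and gamma neurons; filled points have an edgeR adjusted p under 0.05 and dotted lines mark the median of all tested genes, -0.16 and -0.07. Filled points are fne at -1.09, Fmr1 at -1.48 and orb2 at 1.95, all in alpha-beta neurons.

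Between 18 h and 30 h, edgeR called 0 of 10 members in alpha-beta neurons, where it called 0.0794% of all genes, and 0 of 10 in gamma neurons, where it called 0.0397%. DESeq2 called 1 and 0 of 10, where it called 4.1% and 6.04% of all genes. An unadjusted p under 0.05 was reached by 3 members in alpha-beta neurons, mub, Rbp9 and orb2, beside 9.49% of all genes, and by 2 in gamma neurons, fne and shep, beside 11.4%. mub came nearest: its alpha-beta libraries held 1172, 742, 1454, 955 and 462 CPM at 18 h and 1741, 1291, 1975, 2900 and 1162 CPM at 30 h. The log2 fold change of 0.92 (SE 0.28) had an adjusted p of 0.36 by edgeR and 0.0414 by DESeq2, and the 2 ranges overlapped. fne in gamma neurons had -0.63 (SE 0.23, adjusted p = 0.349), from 3133 ± 1128 CPM at 18 h to 2023 ± 496 CPM at 30 h (SD, n = 5 each). In alpha-beta neurons Rbp9 had a log2 fold change of 0.80, pum 0.21, bru3 0.14, Fmr1 0.03, elav 0.01, fne 0.01 and shep -0.15. In gamma neurons Rbp9 had 0.52, mub 0.24, bru3 -0.15, pum -0.33, elav -0.34, shep -0.47 and Fmr1 -0.52. For Tob, with most libraries of both ages at 0, no fold change is given. No difference between the cell types in this step was called for a member by either tool, where edgeR called 0% and DESeq2 4.34% of all genes, and 0 members had an unadjusted p under 0.05, beside 7.58% of all genes.

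Between the cell types, averaged over the 5 pupal stages, fne was lower in gamma neurons, the 1 member that edgeR called. Its group means in alpha-beta neurons were 3546 ± 1090.1, 3163 ± 389, 3760 ± 1157, 2967 ± 523 and 3574 ± 1206 CPM from 18 h to 30 h (SD, n = 5, 5, 6, 4 and 5). Those in gamma neurons were 3133 ± 1128, 2648 ± 323, 2155 ± 616, 2133 ± 318 and 2023 ± 496 CPM (SD, n = 5, 5, 5, 3 and 5). The gamma mean was the lower one at 6 of 6 stages, adult included, although the libraries of single stages overlapped except at 27 h, where 2.79% of all genes had gamma libraries below every alpha-beta library. Rbp9 had gamma libraries below every alpha-beta library at 27 h too, by a narrow margin, and at 24 h, where 0.725% of all genes did. The pooled log2 fold change was -0.51 (SE 0.11, edgeR adjusted p = 0.00138), and it remained called without any 1 of the 48 pupal libraries and in 8 of 8 alternative fits.

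That comparison called 1 of 10 members, lower, where 6.27% of all genes were called (4.1% lower). Rbp9 had a pooled value of -0.41 (SE 0.14, adjusted p = 0.0755), pum -0.40 (SE 0.16, adjusted p = 0.155) and bru3 -0.30 (SE 0.12, adjusted p = 0.135), none of them called by the edgeR fit of all groups. Rbp9 passed in 3 of 8 alternative fits, only the groups compared (adjusted p = 0.0137), limma-voom (0.0174) and DESeq2 (0.0211), and pum in 2 of 8, limma-voom (0.00834) and only the groups compared (0.0154). bru3 passed in 1 of 8, limma-voom (0.0304). The other members were elav at -0.13, shep at -0.13, orb2 at -0.03, Fmr1 at 0.02 and mub at 0.21, the last passing in 1 of 8, with the library number block (0.0373). For Tob, which had no count in any gamma library at 18, 27 or 30 h, no pooled fold change is given. The summed level of the 7 markers of neuroblasts and newborn neurons moved with the cell types too, at 2938 to 7682 CPM in pupal alpha-beta and 1408 to 3376 CPM in pupal gamma libraries, with wor at 0 in all pupal gamma libraries. Most of the sum was pros and lncRNA:cherub, with medians of 4547 and 2919 CPM in alpha-beta and 2397 and 87.7 CPM in gamma neurons at 18 h. It was also 5866 to 8801 CPM in adult alpha-beta libraries, where wor, dpn, ase and insc were at 0 and pros had a median of 6538 CPM. The part of these markers in the difference of fne was not tested.

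Taken stage by stage, edgeR called no member at 18, 21, 24, 27 or 30 h, where it called 0.238%, 0.0993%, 0.169%, 0% and 0.208% of all genes. Unadjusted p-values under 0.05 numbered 1, 0, 4, 0 and 3 members, beside 12.3%, 12.5%, 12.3%, 6.69% and 11.8% of all genes. These were mub at 18 h, fne, Rbp9, pum and Tob at 24 h, and fne, bru3 and Tob at 30 h. For Tob they rested on few counts: only 2 alpha-beta libraries at each of these stages had any, at most 52 at 24 h and 40 at 30 h. Gamma libraries held at most 2 and 0 Tob counts. DESeq2 called 0, 0, 1, 0 and 1 members, in both cases fne, where it called 6.2%, 6.95%, 6.1%, 4.12% and 6.3% of all genes. For fne the log2 fold change was -0.80 at 24 h (SE 0.22, edgeR adjusted p = 0.179, DESeq2 0.0101) and -0.82 at 30 h (SE 0.23, edgeR 0.178, DESeq2 0.0118). The authors' deposited table gives fne the same sizes, -0.80 and -0.82, with adjusted p of 0.00658 and 0.00922, and also passes Rbp9 at 24 h (-0.84, adjusted p = 0.0365). Rbp9 at 24 h was 274 ± 42.8 CPM (SD, n = 6) in alpha-beta and 152 ± 43.8 CPM (SD, n = 5) in gamma neurons, or -0.85 on the log2 scale (SE 0.30; adjusted p by edgeR, 0.298). Over the 5 stages the log2 fold changes of gamma against alpha-beta ran from -0.85 to 0.06 for Rbp9, -0.79 to 0.07 for pum, -0.68 to 0.31 for orb2, -0.54 to 0.18 for bru3 and -0.37 to 0.22 for shep. Those of elav ran from -0.31 to 0.19, of Fmr1 from -0.30 to 0.44 and of mub from -0.23 to 0.70.

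In adults edgeR called 0 of 10 members between the cell types, where it called 3.6% of all genes. Rbp9 was the 1 member with an unadjusted p under 0.05, beside 20% of all genes, and the 1 called by DESeq2, which called 14.9%. It measured 339, 199, 290.4, 417 and 338 CPM in alpha-beta and 305, 209, 85.3, 245 and 54.3 CPM in gamma libraries. The ranges overlapped, with gamma replicates 3 and 5 below all others. The log2 fold change of -0.82 (SE 0.31) had an adjusted p of 0.119 by edgeR and 0.0268 by DESeq2, and of 0.0422 by edgeR without adult gamma replicate 1; the authors' deposited table gives -0.87 and 0.0283. The other members had log2 fold changes of 0.62 for Fmr1, 0.34 for mub, 0.27 for pum, -0.03 for bru3, -0.21 for fne, -0.38 for elav, -0.41 for shep and -0.54 for orb2.

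Genes that work with the members were followed in 6 lists. Their counts stand beside the share of all tested genes called in adult against 30 h. That share was 12.5% in alpha-beta (4.69% higher, 7.8% lower) and 10.2% in gamma neurons (5.06% higher, 5.18% lower). Of 10 deadenylation genes, the CCR4-NOT subunits and the poly(A)-binding protein pAbp, adult against 30 h called 0 higher and 1 lower in each cell type. That gene was pAbp in both, with -1.12 ± 0.38 (SE; edgeR adjusted p = 0.0405) and -1.31 ± 0.38 (SE; adjusted p = 0.0174) for the alpha-beta and the gamma comparison. No CCR4-NOT subunit, the complex that Tob proteins recruit, was called in either. Of 4 Orb2 partners, CG13928 fell in both, at -0.91 (adjusted p = 0.000276) and -1.46 (adjusted p = 3.72e-08); its protein takes part in deadenylation by Orb2. LIMK1, mrj and CG4612 were not called.

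Of 12 tested genes of translational repression and RNA granules, 2 fell in alpha-beta neurons, rin at -1.97 (adjusted p = 3.77e-07) and the RNA helicase me31B at -1.31 (adjusted p = 0.0148). In gamma neurons only rin of that list fell, at -0.91 (adjusted p = 0.0214), and none rose in either. Of all tested genes 7.8% fell in alpha-beta and 5.18% in gamma neurons. Of 4 tested relatives and partners of the CELF, CPEB and PUF members, brat, which acts with Pumilio on hunchback mRNA in the embryo, fell in both, at -1.95 (adjusted p = 7.92e-06) and -2.33 (adjusted p = 2.74e-07). Its mean in alpha-beta neurons was 1287 ± 482 CPM at 30 h and 334 ± 136 CPM in adults (SD, n = 5 each).

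Of 17 other neuronal RNA-binding proteins, 2 rose and 3 fell in alpha-beta neurons and 1 rose and 2 fell in gamma neurons. Of all tested genes 12.5% and 10.2% were called in these comparisons. The splicing regulator ps, also known as pasilla, rose in both, by 4.10 (SE 0.72, adjusted p = 3.37e-05) and 5.18 (SE 0.76, adjusted p = 1.31e-06) on the log2 scale. In alpha-beta neurons Imp fell, at -1.66 (adjusted p = 0.000754), and so did lark, at -1.13 (adjusted p = 0.00153), while glo fell and msi rose. In gamma neurons HnRNP-K fell, at -1.03 (adjusted p = 0.00217), and so did Hrb27C, at -0.72 (adjusted p = 0.0316). Imp is also a marker of gamma neurons.

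Of 8 known targets and partners of Fmr1 or Pumilio, 2 rose and 4 fell in alpha-beta neurons. In gamma neurons 2 rose and 3 fell. The shares of all tested genes called were 12.5% and 10.2%. chic, the fly profilin and a target of Fmr1, fell in both, with log2 fold changes of -2.15 (adjusted p = 6.78e-09) and -2.92 (adjusted p = 2.17e-12). The small GTPase gene Rac1 fell as well, at -1.15 (adjusted p = 0.000174) and -1.35 (adjusted p = 1.8e-05). futsch, the MAP1B orthologue that Fmr1 represses, had 501 ± 205 CPM at 30 h and 1535 ± 565 CPM in adult alpha-beta neurons (SD, n = 5 each), a rise of 1.61 (adjusted p = 0.00971), and rose by 1.99 (adjusted p = 0.00162) in gamma neurons. para, a sodium channel gene that Pumilio represses and 1 of the 7 neuronal markers, rose by 1.44 (adjusted p = 0.00277) and 1.56 (adjusted p = 0.00151). The others that fell were Dscam1 and Cyfip in alpha-beta and eIF4E1 in gamma neurons. Between 18 h and 30 h edgeR called 0 genes of these 6 lists in either cell type.

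**Figure D5:**
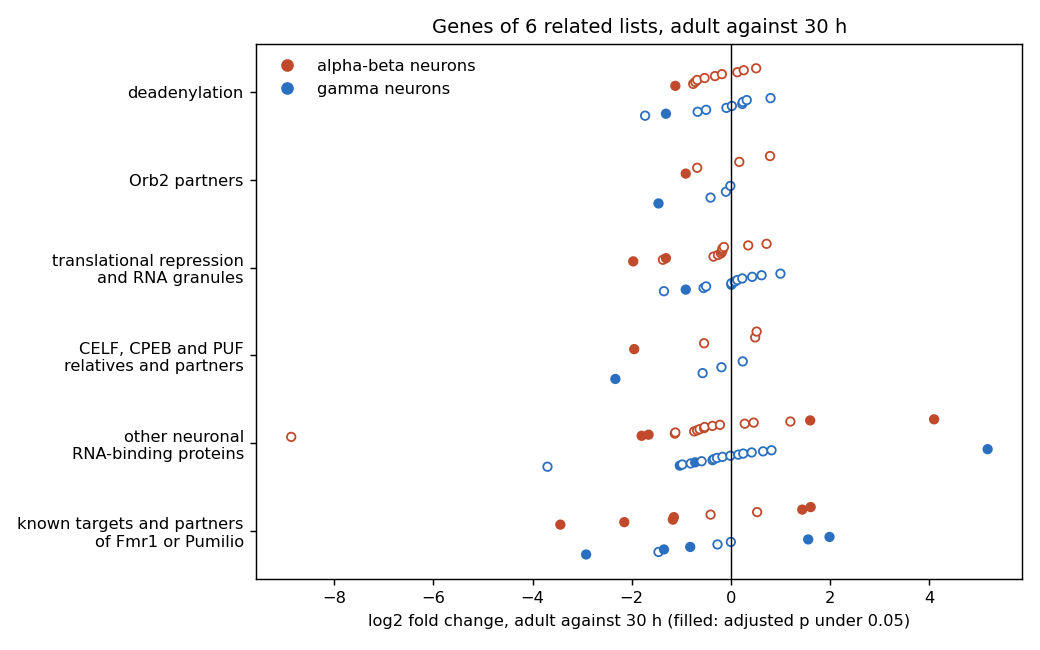
Log2 fold change of adult against 30 h for the genes of 6 lists related to the members, 1 point per gene, in alpha-beta and gamma neurons; filled points have an edgeR adjusted p under 0.05. ps stands apart on the right at 4.10 and 5.18, and the open points farthest to the left are how, which was not called.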

How the data were processed

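The authors deposited 1 table with raw counts per gene for 58 libraries and, per the file headers, log2 fold changes and adjusted p-values of 8 comparisons of their own. Reads were aligned with STAR, per the submitters' processing notes; its version, the genome build, the counting tool and its strand setting are not given in the sources used here. Libraries carry no molecular identifiers, so PCR copies are counted as reads. Groups follow the neuron type and age given in the labels. Counts were filtered (filterByExpr, minimum count 10, minimum total 15), TMM-scaled and fitted over 12 groups with edgeR 4.0.16 (quasi-likelihood, legacy mode with trended dispersion; R 4.3.3), with p-values adjusted over 10072 genes in each of 13 comparisons. Replicate spread was wide, with a common biological coefficient of variation of 1.34 over all tested genes. For the members it ran from 0.27 for elav and shep to 0.526 for orb2, with Tob apart at 1.87. No pair of libraries within a group agreed within sampling noise. The 3-count floor lay between 0.111 and 0.693 CPM and, like all counting error, leaves out amplification. Exon lengths and overlaps came from Ensembl release 115, whose build may not be the authors'. The table of markers and lists used exact symbols, and older symbols for Cyfip (listed as Sra-1) and HnRNP-K (listed as bl). cup, nos, NimC1 and srp were not analysed here. Photoreceptor markers summed to at most 403 CPM in any library, muscle markers to 196 CPM and hemocyte and fat body markers to 423 CPM. The 5 gamma neuron markers had summed medians of 709 CPM in adult alpha-beta and 2889 CPM in adult gamma libraries. From 18 h to 30 h the alpha-beta medians were 1290, 1691, 2008, 2215 and 2072 CPM, and the gamma medians 2248, 2498, 2195, 1870 and 2093 CPM. The alpha-beta median was thus the higher one at 27 h, and the ranges overlapped at 30 h.

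All 10 members are named in each comparison, at single stages as ranges where not singled out. No fold change is given for Tob where most of all the libraries compared were at 0. Of the other lists, genes called in adult against 30 h are named, up to the 3 with the smallest adjusted p per list and cell type. futsch, glo, msi, Dscam1, Cyfip and eIF4E1 were named outside this rule after their values were seen. The nearest genes are the 3 with the highest Pearson correlation of 12 group means of log2 CPM (prior count 2, average log2 CPM of at least 4), as a description. The members and lists were chosen with earlier results of these data known. Alternatives were DESeq2 size factors, no low-count filter, only the groups compared, DESeq2 1.42.0 (9667 genes with an adjusted p), limma-voom (limma 3.58.1) with sample weights, a replicate block, a block of 5 sets of 12 consecutive library numbers, each library left out in turn (with the trended dispersion of the full fit kept) and, added after the data were seen, edgeR's newer quasi-likelihood mode.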

Additional observations from a re-analysis of the deposited data

Results flagged for a closer look

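In 14 of 107 member and group combinations with 4 to 10 libraries, 1 library stood far from the others by Dixon's 95% criterion; chance alone gives such a library in about 1 of 20 groups. The library for pum was replicate 5 of adult gamma neurons, with 3778 CPM where the others held 281 to 1024 CPM. In adult gamma neurons mub also had such a library, replicate 4 with 3237 CPM, and shep had replicate 1 with 2660 CPM. Pupal gamma neurons at 21 h held 4 of them, orb2 with 147 CPM and Tob with 6.73 CPM in replicate 3, and bru3 with 1830.1 CPM and shep with 3222 CPM in replicate 5. The others were mub with 2433 CPM in replicate 3 of gamma neurons at 18 h, fne with 3745 CPM in replicate 5 of alpha-beta neurons at 27 h, and Rbp9 with 580 CPM in replicate 5 of alpha-beta neurons at 30 h. For Tob, where most pupal libraries were at 0, they were alpha-beta libraries with 0.439 CPM at 18 h, 9.29 CPM at 21 h and 2.94 CPM at 30 h, and a gamma library with 0.147 CPM at 24 h.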

How the results depend on the processing

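Of 2892 recomputed fold changes of members, 2704 kept their direction and their side of the threshold, 160 changed sign with no call in either fit, 2 lost a call, 26 gained one and 0 called ones reversed. The number of members called in adult against 30 h stayed at 4 in alpha-beta neurons except with limma-voom, which called 2. Over all genes limma-voom called 1839 there and the main fit 1258. In gamma neurons the number of members called was 2 in place of 1 under several alternatives, in each case with orb2. Those were DESeq2 size factors (1045 of all genes called), the replicate block (1145) and the library number block (1220). limma-voom (1276), DESeq2 (2167) and edgeR's newer mode (1655) were the others. The main fit called 1032 of all genes. When single libraries were left out, 1 to 2 members were called. From 18 h to 30 h in alpha-beta neurons the library number block and DESeq2 each called 1 member, mub. Over all genes they called 25 and 396, where the main fit called 8. For gamma against alpha-beta over the pupal stages the main count was 1, with 632 of all genes called. There limma-voom called 4 members (1091 of all genes) and the fit of only the groups compared 3 (764). The library number block (636 of all genes) and DESeq2 (1186) called 2 members each. At single stages the count of 0 became 1 at 18 h and 24 h with the library number block. Over all genes that fit called 45 and 27 there, where the main fit called 24 and 17. With DESeq2 the count became 1 at 24 h, at 30 h and in adults. DESeq2 called 590, 609 and 1443 of all genes there, where the main fit called 17, 21 and 363. With edgeR's newer mode the count became 1 at 30 h, with 116 of all genes called. Leaving out single libraries gave 0 to 1 in adults. The cause of these changes was not tested. Over all genes DESeq2 called 2465 against 1258 in alpha-beta and 2167 against 1032 in gamma neurons for adult against 30 h.

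Libraries with the same replicate number deviated together only weakly, with a mean r of 0.015 to 0.065 over the comparisons. Libraries with different numbers had a mean r of -0.016 to -0.004. The numbers were not taken as pairs. The replicate block changed no member's call but that of orb2 in gamma neurons (log2 fold change 1.54, edgeR adjusted p = 0.00511). A pupal level of Tob under the floor of 3 counts could not be told from 0 at this depth.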
